A study of Mus musculus with 6 samples.

Results

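The 6 long noncoding RNAs Pinc, H19, Neat1, Malat1, Gas5 and Meg3 were followed in purified luminal progenitor cells of the mouse mammary gland with and without the receptor ROBO1. They were taken from the deposited gene table by symbol, without a filter on value, and account for 7 of its 18537 rows. Each row is a cluster of overlapping transcripts with a symbol, and Meg3 has 2. The choice was made with earlier results of these data known, the study having named Pinc among the upregulated genes of its luminal progenitor RNA-seq. The cells came from adult nulliparous females of 2 genotypes, Robo1+/+ and Robo1-/-, which the labels call littermates. The Robo1-/- animals were homozygous for the tm1Matl allele in all tissues, so the genotype was not restricted to the sorted cells. Cells were sorted as Lin-CD24loCD29+CD61+, and poly(A)+ RNA of 2 animals was pooled for each library, giving 3 Robo1+/+ libraries (gh03, gh09 and gh15) and 3 Robo1-/- libraries (gh06, gh12 and gh18). Because the allele is global and the RNA is bulk, a lower level cannot be told apart from fewer cells of a type that carries the RNA.

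Pinc, the pregnancy-induced noncoding RNA, is made in the alveolar cells of the mammary gland during pregnancy and holds back their terminal differentiation; it associates with Polycomb repressive complex 2, which methylates histone H3 at silenced genes. H19 is the maternally expressed RNA of an imprinted domain that it shares with Igf2, and it also carries a microRNA. Malat1 and Neat1 are neighbouring nuclear RNAs of nuclear speckles and paraspeckles, Gas5 hosts small nucleolar RNAs in its introns and accumulates when growth stops, and Meg3 is the maternally expressed RNA of a second imprinted domain.

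The libraries held between 9727191 and 17433868 reads assigned to genes, and the unit of every value below, unless stated otherwise, is the normalised read count, which is the number of reads divided by 1 size factor per library. Robo1 itself was at 289, 574 and 541 in Robo1+/+ (gh03, gh09, gh15) and at 130, 214 and 177 in Robo1-/- (gh06, gh12, gh18), a log2 fold change of -1.39 ± 0.36 (SE). All 10 luminal progenitor markers searched were detected in every library, with Krt8, a luminal keratin, the highest of them by mean. Library gh18 (Robo1-/-) stood apart: its deviations from the other libraries followed the GC content of genes with a Spearman rho of -0.80 over 12778 genes, against 0.17 to 0.60 in the other 5. Where the value of a member or of a gene list turns on this library, it is also given without it.

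Pinc was the member with the clearest difference between the genotypes. It was at 42.0, 137 and 105 in Robo1+/+ (mean 94.7 ± 48.4, SD, n = 3) and at 200, 527 and 204 in Robo1-/- (mean 310 ± 187, SD, n = 3). Every Robo1-/- library was above every Robo1+/+ library, and gh03 at the bottom and gh12 at the top were each apart from the other libraries of their genotype. The ratio of the means was 3.28, and the log2 fold change on the log2(value + 1) scale was 1.70 ± 0.57 (SE). The values rest on 33 to 575 reads per library, so counting error is small beside the spread between libraries. In limma the unadjusted p was 0.0207, past the thresholds the study drew in its volcano plot, which were an unadjusted p under 0.05 together with a log2 fold change above 1 or below -1. By its methods the study took its p-values from DESeq2, so the test differs. DESeq2 run here on the read counts gave 1.708 with an unadjusted p of 0.00266 (adjusted 0.994). The edgeR test gave 1.705 with an unadjusted p of 0.0183 (adjusted 0.913). The limma p adjusted over 13692 genes by Benjamini-Hochberg was 0.858. The exact two-sided permutation test over the 6 libraries gave p = 0.1, the smallest it can give with 3 against 3.

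These calls have to be read against the whole table. By the adjusted p, limma called 0 genes (0%), edgeR 0 and DESeq2 1 (RP23-282C23.3, named after its value was seen), while 231 genes (1.69%) had an unadjusted limma p under 0.05, 221 in edgeR and 335 in DESeq2. Past both thresholds were 40 genes higher in Robo1-/- (0.292%), Pinc among them, and 75 lower (0.548%). At these shares a short gene list would mostly hold none, so a count of 0 in a list below says little about its genes. The genotypes did not overlap for 661 genes higher (4.83%) and 627 lower (4.58%) in Robo1-/-, so the complete separation of Pinc is shared with many genes. Among all genes tested Pinc ranked 13 by log2 fold change counted from the highest, 135 by its size in either direction and 60 by p.

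**Figure D1:**
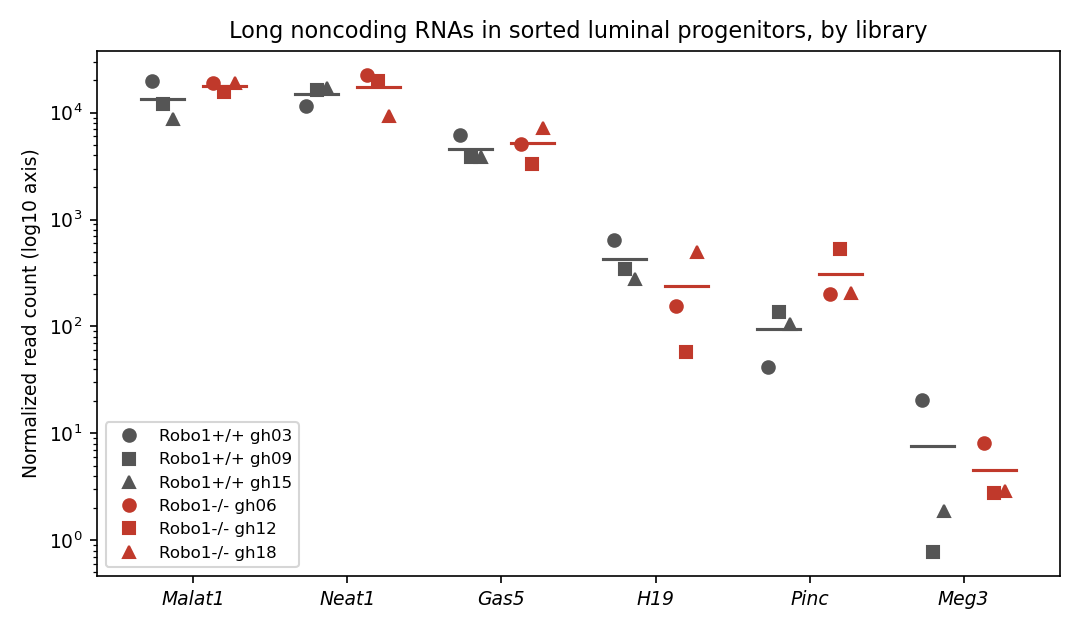
Normalised read counts (log10 axis) of each long noncoding RNA, with Robo1+/+ in grey and Robo1-/- in red, 1 symbol per library and a bar at the mean of each genotype (n = 3); Meg3 is the sum of its 2 clusters. The Pinc symbols are separate between genotypes (42.0 to 137 against 200 to 527), while those of the other members overlap.

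The plot of values by library shows that separation beside the overlap of the remaining members. Leaving out gh18 moved the log2 fold change of Pinc to 1.93, and leaving out any library left it between 1.21 and 2.05. The unadjusted call was lost without gh03 (log2 fold change 1.21, unadjusted limma p of 0.0619) and without gh12 (1.25, unadjusted limma p of 0.0676), the libraries at the 2 ends of its range. Pinc has no exons in the annotation of the genome build used here, so it could not be corrected for GC content; over the 5th to 95th percentile of GC the genotype difference fitted to all genes ran from -0.80 to 0.33, and removing it would place Pinc between 1.37 and 2.50.

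Pinc lies on chromosome 1, on the minus strand, in a wide gap between Tnp1 (391670 bases away) and Tns1 (502662 bases away). The sequence around its RefSeq start site, 250 bases before and 50 after, is shown because hormone and Notch signalling act on alveolar genes through factors with known DNA motifs. The RefSeq window (GRCm38.p6) occurs once, without a mismatch, in the older build (NCBI37, mm9), at chr1:73454094-73454393. Capitals mark the matches to 4 motifs searched on both strands. The motif of the STAT factors, which act downstream of the prolactin receptor, was searched as TTCNNNGAA. That of RBPJ, the DNA-binding partner of Notch, was searched as TGGGAA. The E-box was searched as CACGTG. The TATA box was searched as TATAAA.
Pinc: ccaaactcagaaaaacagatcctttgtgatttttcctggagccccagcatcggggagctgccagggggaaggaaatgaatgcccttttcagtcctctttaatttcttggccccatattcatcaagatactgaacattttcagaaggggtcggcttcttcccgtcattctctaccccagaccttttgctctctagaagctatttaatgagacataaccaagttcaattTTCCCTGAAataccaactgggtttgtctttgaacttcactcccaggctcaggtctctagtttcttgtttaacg
The window held 1 match, to the STAT motif, whose first base lies 23 bases before the start site. This 9-letter motif, which reads the same on both strands, was present in 8.3% of the 32851 promoter windows of the same length, TGGGAA in 25.6%, CACGTG in 7.15% and TATAAA in 13.6%. Among the other members, the 2 Gas5 windows held TGGGAA in 1, the 2 Meg3 windows held TATAAA in 1 and TGGGAA in the other, and the Malat1 window held no match. The GC content of the Pinc window was 44.3%, below the median of 52.7% over all windows, with 4 CG pairs, against 73.7% and 62% with 33 and 19 CG pairs in the Gas5 windows.

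The genes next to Pinc in the table were not called. Igfbp5, a secreted binding protein of insulin-like growth factors and the nearest listed cluster on one side, was among the most abundant RNAs of these cells. It stood at 41977, 57550 and 44484 in Robo1+/+ and at 89197, 84056 and 48673 in Robo1-/-, a log2 fold change of 0.59 ± 0.31 (limma p = 0.0969 unadjusted, 0.858 by Benjamini-Hochberg; exact permutation p = 0.2). Of the Robo1-/- libraries, 2 were above all Robo1+/+ libraries and gh18 lay among them; without gh18 the log2 fold change was 0.86. On the other side AK079660 had 0 to 3 reads per library, and Tns1, a focal adhesion protein, had a mean of 28.4 in Robo1+/+ and 13.8 in Robo1-/- (log2 fold change -0.85 ± 0.66, SE).

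Polycomb repressive complex 2, the complex Pinc binds, was measured through 13 subunits and accessory proteins. None of the 13 passed both thresholds (0.292% of all genes higher and 0.548% lower) or an unadjusted limma p of 0.05 (1.69% of all genes). Their median log2 fold change was 0.05 (-0.08 without gh18), with a range of -0.96 to 0.37, against 0.00 over all genes. Rbbp7, a histone-binding subunit, was at 5387, 2486 and 2661 in Robo1+/+ and at 2626, 2691 and 5384 in Robo1-/-. The 1 high library in each genotype was gh03 and gh18, and the log2 fold change of Rbbp7 was 0.03 ± 0.41 (SE).

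The sum of mature luminal markers was higher in Robo1-/-, though its members did not all lie in 1 direction. Summed over 10 mature luminal markers, the level was 49463 to 63542 in Robo1+/+ libraries against 66937 to 77633 in Robo1-/- libraries, without overlap. Prlr, the prolactin receptor and highest marker by mean, was at 21166, 31025 and 20097 in Robo1+/+ and at 36718, 26868 and 37136 in Robo1-/-. It overlapped, with a log2 fold change of 0.49, and 0.17 after GC correction. Of the 10 single markers, 1 (Pgr) was higher without overlap, against 4.83% of all genes. A positive log2 fold change was found for 7 of the 10, with 0 past both thresholds, a median of 0.20 and none at 0. Pgr, the progesterone receptor, was at 1721 to 3394 in Robo1+/+ and at 3752 to 5481 in Robo1-/-, a log2 fold change of 0.76 ± 0.31 (limma p = 0.0442 unadjusted, 0.858 by Benjamini-Hochberg; exact permutation p = 0.1). The list's largest differences lay the other way, Tnfsf11, a ligand of the progesterone response, at -2.94 ± 1.99 and Wnt4 at -2.60 ± 1.53 (SE), both named after their values were seen. Each leaned on single libraries. Wnt4 was at -0.65 without gh18, where it had 3 reads, and Tnfsf11 at -0.66 without gh12, where it had 1 read. Tnfsf11 was also at -1.81 without gh03, its highest library at 1660. Without gh18, Prom1 (1.32, unadjusted limma p of 0.0334) and Tnfsf11 (-4.58, 0.0402) passed both thresholds, in opposite directions. Leaving out gh18 also raised the count over all genes past both thresholds from 115 to 205. Prom1 was at 0.32 without gh03 and at 0.48 without gh06. Of the luminal progenitor markers Cd24a, the surface protein used in the sort, was also higher in all Robo1-/- libraries (19935 to 21142 against 10675 to 14373, log2 fold change 0.67 ± 0.21, SE), while the sum of the 10 overlapped (75993 to 153188 against 101628 to 134186). The part of these markers in the Pinc difference was not tested.

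The genes whose values tracked Pinc most closely over the 6 libraries were Dcaf7 (Pearson r = 0.997), Mxi1 (0.987), Tspan8 (0.985), Ssh2 (0.981) and Nceh1 (0.980), among 11485 genes with a mean of at least 50, of which 43 had r over 0.95. The correlation is a description over 6 libraries, 3 of each genotype. Most of these genes moved over a far narrower range than Pinc: Dcaf7, a WD-repeat scaffold protein, ran from 1772 to 2077. Tspan8, a tetraspanin of epithelial cells, had the widest range. It stood at 327, 803 and 743 in Robo1+/+ and at 940, 1785 and 890 in Robo1-/-, without overlap. The log2 fold change was 0.98 ± 0.44 (SE), which did not pass the threshold (limma p = 0.0601 unadjusted, exact permutation p = 0.1). Without gh18 it was 1.16, past both thresholds (unadjusted limma p of 0.0389), but it was 0.57 without gh03, 0.66 without gh12 and 0.67 after GC correction. Tspan8 was picked because it tracked Pinc, which separates the genotypes, so its own separation is not separate support.

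H19 lay in the opposite direction to Pinc without passing a threshold. It was at 645, 348 and 279 in Robo1+/+ (mean 424 ± 195, SD, n = 3) and at 155, 57.7 and 499 in Robo1-/- (mean 237 ± 232, SD, n = 3). The genotypes overlapped only through gh18, the highest of the 3 Robo1-/- libraries and above 2 of the Robo1+/+ ones. The log2 fold change was -1.26 ± 0.76 (limma p = 0.142 unadjusted, 0.858 by Benjamini-Hochberg), and the exact permutation test gave p = 0.3. Without gh18 it was -2.05 ± 0.51, past both thresholds (unadjusted limma p of 0.00555, 0.938 by Benjamini-Hochberg), whereas without gh12 it was -0.51 and after GC correction -0.77 ± 1.03. The count models edgeR and DESeq2, which average counts and not logs, gave log2 fold changes of -0.86 and -0.83.

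The H19 gene lies at chr7:149761434-149764048 on the minus strand (NCBI37), and its 4 exon blocks have a GC content of 55.9%, the highest of the 5 members with annotated exons. Its transcript is also the precursor of miR-675, whose mature sequences are shown because the host RNA was measured here and they were not, poly(A)+ libraries holding no mature microRNA. Both lie within H19 (RefSeq, GRCm38.p6, minus strand), at chr7:142577112-142577133 for the 5p arm and chr7:142577078-142577099 for the 3p arm, and capitals mark the seed, bases 2 to 8.
miR-675-5p: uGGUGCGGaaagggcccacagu
miR-675-3p: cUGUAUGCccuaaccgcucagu
The 2 arms have different seeds.

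Igf2, the growth factor gene on the far side of the shared imprinting control region, was low. It was at 11.5, 3.14 and 24.4 in Robo1+/+ and at 2.30, 0 and 67.1 in Robo1-/-, so that gh18 was again the high library, as for H19. Its log2 fold change was -0.85 ± 1.54 with all libraries and -2.59 without gh18 (unadjusted limma p of 0.0324). On the other side Mrpl23, a mitochondrial ribosomal protein, was at 386 to 505 in Robo1+/+ and at 435, 442 and 52.5 in Robo1-/-, gh18 being the low library here (log2 fold change -1.03, and -0.02 without gh18).

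Markers of stromal cells varied beside H19. The summed level of 10 fibroblast markers was 1686, 1256 and 1682 in Robo1+/+ and 1530, 607 and 3286 in Robo1-/-, with gh12 lowest and gh18 highest, as for H19 within Robo1-/-. Postn, a matrix protein, made up most of the gh18 sum at 2543, while Col1a1, a collagen named after its value was seen, was at 2.92 in the same library and at 14.9 to 44.9 in the other 5. Among the tested markers Postn alone was higher in gh18 than in gh06, Dcn for example being at 582 against 641. Of the list's 10 markers 7 were tested, 1 of them with a positive log2 fold change and 0 past both thresholds, and 3 were below a mean of 10. The median log2 fold change of the tested markers was -0.12, and it was 0.24 without gh18. The genes most like H19 over the 6 libraries were Ttc39c (Pearson r = 0.989) and Vim (0.985), the intermediate filament protein of mesenchymal cells, which was at 155, 114 and 101 in Robo1+/+ and at 76.0, 60.5 and 130 in Robo1-/-. The part of these cells in the H19 values was not tested.

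By normalised read count, which grows with the length of an RNA, Neat1 and Malat1 came next to Xist among the long noncoding RNAs of the table. Malat1 was at 19607, 11985 and 8670 in Robo1+/+ (mean 13421 ± 5608, SD, n = 3) and at 18944, 15510 and 18864 in Robo1-/- (mean 17773 ± 1960, SD, n = 3). Only gh03 among the Robo1+/+ libraries reached the Robo1-/- values, and it exceeded all of them. The log2 fold change was 0.48 ± 0.32 (limma p = 0.178 unadjusted, 0.858 by Benjamini-Hochberg), the exact permutation test gave p = 0.4, and the log2 fold change was 0.80 without gh03, 0.21 without gh15 and 0.21 after GC correction.

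Neat1 was at 11657, 16199 and 17011 in Robo1+/+ (mean 14955 ± 2886, SD, n = 3) and at 22685, 19752 and 9353 in Robo1-/- (mean 17263 ± 7006, SD, n = 3). Its lowest library was gh18 and its 2 highest were the other Robo1-/- libraries. The log2 fold change was 0.13 ± 0.37 (limma p = 0.741 unadjusted, 0.924 by Benjamini-Hochberg) and the exact permutation p was 0.8. Without gh18 the genotypes no longer overlapped and the log2 fold change was 0.52, with a limma p of 0.0531 unadjusted; after GC correction it was 0.00 ± 0.42.

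The 2 RNAs lie next to each other on chromosome 19, both on the minus strand and each as a single exon block, Malat1 at chr19:5795690-5802671 and Neat1 at chr19:5824708-5845478 (NCBI37). Their 3′ ends are shown because the mature ends of Malat1 and of the long form of Neat1 are not polyadenylated in the usual way but end in an encoded A-rich tract, held in a triple helix with upstream U-rich stretches, which matters for RNA selected on poly(A). Capitals mark runs of at least 10 letters found in both; Malat1 is chr19:5795982-5796076 and Neat1 chr19:5824708-5824802 (NCBI37, minus strand).
Malat1: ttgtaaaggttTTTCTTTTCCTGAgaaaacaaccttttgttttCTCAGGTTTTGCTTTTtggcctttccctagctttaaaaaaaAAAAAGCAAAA
Neat1: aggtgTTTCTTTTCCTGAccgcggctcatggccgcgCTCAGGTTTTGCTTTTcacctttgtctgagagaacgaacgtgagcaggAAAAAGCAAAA
Of the 95 bases of each, 40 fell in the shared runs, which are 2 U-rich stretches and the A-rich tract itself.

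Although they are neighbours with like 3′ ends, Malat1 and Neat1 did not vary together. The ratio of Malat1 to Neat1 was 1.68, 0.74 and 0.51 in Robo1+/+ and 0.835, 0.785 and 2.02 in Robo1-/-. Malat1 exceeded Neat1 in 1 library of each genotype, gh03 and gh18, and the log2 ratio differed between genotypes by 0.35 (exact permutation p = 0.5). The cluster beyond Neat1, AK215842, was abundant as well, at 3319, 5054 and 5103 in Robo1+/+ and at 6923, 5481 and 1097 in Robo1-/-. It amounted to 0.277 to 0.312 of the Neat1 value in 5 libraries and to 0.117 in gh18.

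The protein partners of these nuclear RNAs are given beside the shares of all genes past both thresholds, 0.292% higher and 0.548% lower. Of 25 clusters for paraspeckle proteins 0 passed both thresholds and the median log2 fold change was 0.15 (0.08 without gh18). Zc3h6 was the 1 with an unadjusted limma p under 0.05, at 48.4 to 90.1 in Robo1+/+ and 124 to 171 in Robo1-/- (log2 fold change 0.92 ± 0.36, SE), and it was 0.65 after GC correction. Hnrnpk, an RNA-binding protein that favours the long form of Neat1, was at 9817 to 12021 in Robo1+/+ and at 10768 to 15495 in Robo1-/-. Of 22 clusters for nuclear speckle and SR splicing proteins 0 passed both thresholds, with a median of 0.12 (-0.02 without gh18); Srrm2, a scaffold of speckles, ran from 15955 to 22334 over the 6 libraries.

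Gas5 was at 6158, 3845 and 3849 in Robo1+/+ (mean 4617 ± 1334, SD, n = 3) and at 5082, 3339 and 7170 in Robo1-/- (mean 5197 ± 1918, SD, n = 3). Its range in Robo1-/- enclosed that of Robo1+/+, with gh18 the highest and gh12 the lowest. The log2 fold change was 0.14 ± 0.34 (limma p = 0.695 unadjusted, 0.909 by Benjamini-Hochberg; exact permutation p = 0.7), and it turned to -0.11 after GC correction and to -0.13 without gh18. Gas5 belongs to the genes whose RNAs start with a run of pyrimidines and are bound by growth control of translation; the first 30 bases from its second RefSeq start (chr1:161035166-161035195, GRCm38.p6, plus strand) are shown with that run of 5 in capitals.
Gas5: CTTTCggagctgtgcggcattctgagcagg
The small nucleolar RNA cluster listed beside it, Snord47, which lies within Gas5, was at 14.9 to 31.8 in Robo1+/+ and at 8.24 to 32.1 in Robo1-/-.

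For the other genes of the same kind as Gas5 the same shares over all genes apply, 0.292% higher and 0.548% lower. Of the snoRNA host genes, 6 were tested, Gas5 among them, with 0 past both thresholds, a median log2 fold change of 0.15 (-0.04 without gh18 and -0.11 after GC correction) and a range of -0.24 to 0.25. Gas5 RNA is itself degraded by nonsense-mediated decay when it is translated, and of 14 factors of that pathway 0 passed both thresholds, 7 lay above 0 and 7 below, and the median was 0.00 (-0.12 without gh18). Smg1, the kinase of the pathway, was at 4476 to 5263 in Robo1+/+ and at 4711, 3784 and 9808 in Robo1-/-, with gh18 again apart.

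Meg3 was near the detection limit. Its 2 clusters together held 16, 1 and 2 reads in Robo1+/+ and 7, 3 and 2 in Robo1-/-, and neither was tested. The most reads were in gh03. The clusters on either side were as low, Begain at 0 to 8.91 and Rtl1 at 0 to 1.46 over the 6 libraries, as was Rian, the next maternally expressed RNA of that domain, at 1.57 to 11.5. Over the 17 tested clusters of imprinted genes in the H19 and Meg3 domains and the wider imprinted network, 7 had a positive log2 fold change and 10 a negative one, 0 passed both thresholds, and the median was -0.28, which moved to -0.01 without gh18. Gnas, the stimulatory G protein, was the highest of them, its most abundant cluster at 7187 to 8283 in Robo1+/+ and at 7550, 7758 and 3296 in Robo1-/-.

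Whether Pinc differed from each other member was tested on the log2 ratio within each library, which leaves the size factors out, in 4 pairs, Meg3 having too few reads. Relative to H19, Pinc was at -3.91, -1.34 and -1.40 in Robo1+/+ and at 0.36, 3.17 and -1.28 in Robo1-/-, a difference of 2.96 (exact permutation p = 0.1, the smallest possible). Relative to Neat1 it was at -8.08, -6.87 and -7.33 in Robo1+/+ and at -6.82, -5.23 and -5.51 in Robo1-/-, a difference of 1.58 (exact permutation p = 0.1). In both pairs every Robo1-/- library was above every Robo1+/+ library, by little for gh18 over H19 and for gh06 over Neat1.

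Relative to Gas5 the difference was 1.56 (exact permutation p = 0.2) and relative to Malat1 1.22 (exact permutation p = 0.6), and in both the genotypes overlapped. The gh03 library, low for Pinc and high for Malat1 and Gas5, carried much of these differences, which were 0.84 and 0.41 without it, as did gh12, the library highest for Pinc, without which they were 0.82 and 0.67. Without gh12 the difference from H19 was 1.76. With 3 libraries against 3 none of the 4 tests can pass 0.05, with or without adjustment over the pairs.

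**Figure D2:**
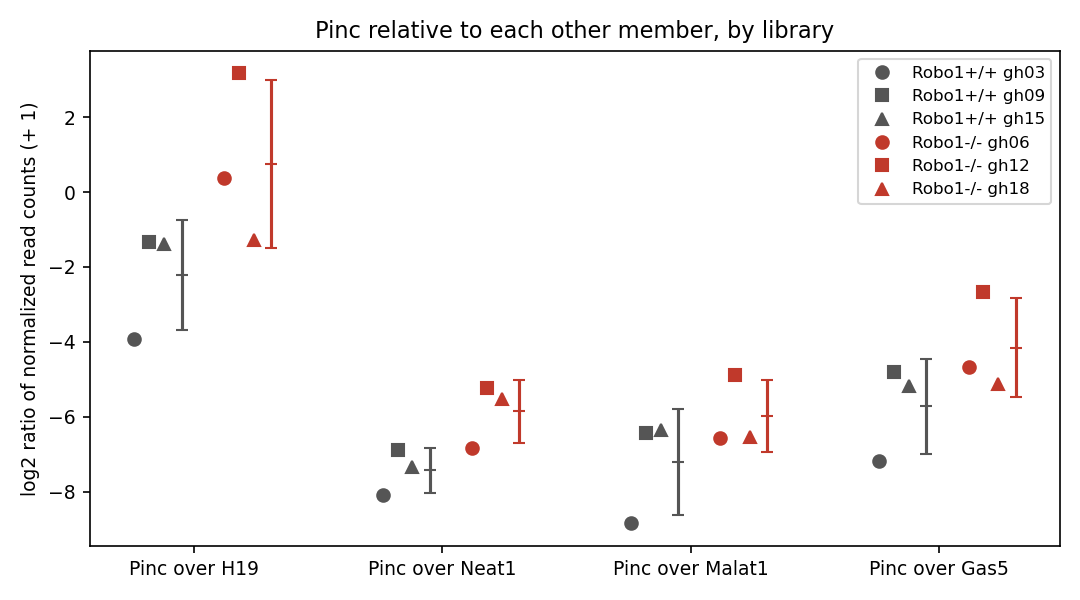
The log2 ratio of Pinc to H19, Neat1, Malat1 and Gas5 (each value + 1) in every library, Robo1+/+ in grey and Robo1-/- in red, with the mean and SD of each genotype (n = 3) to the right of its symbols. The genotypes are separate for H19 and Neat1 (mean differences 2.96 and 1.58) and overlap for Malat1 and Gas5.

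The plot of ratios by library shows gh03 as the lowest point in every pair. Among the long noncoding RNAs annotated by RefSeq, 388 clusters were found and 194 tested. Of these Pinc was the 1 past both thresholds in the higher direction and 0 were past them in the lower one. It ranked 1 by p and 2 by log2 fold change, behind BC018473, which spanned 1.27 to 3834 within Robo1+/+ and 3.45 to 9572 within Robo1-/-. The study had already named Pinc as upregulated from these same libraries, so its call and ranks are descriptions and not a separate test. Another 2 had an unadjusted limma p under 0.05, 4921531C22Rik (log2 fold change 0.92) and AW011738 (0.82), both named after their values were seen, so that 1.55% of the class stood against 1.69% of all genes. The median log2 fold change of the class was 0.03, and the 10th and 90th percentiles were -0.69 and 0.52. The genotypes did not overlap for 8 of the 194 in the higher direction (4.12%, against 4.83% of all genes) and 4 in the lower (2.06%, against 4.58%).

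**Figure D3:**
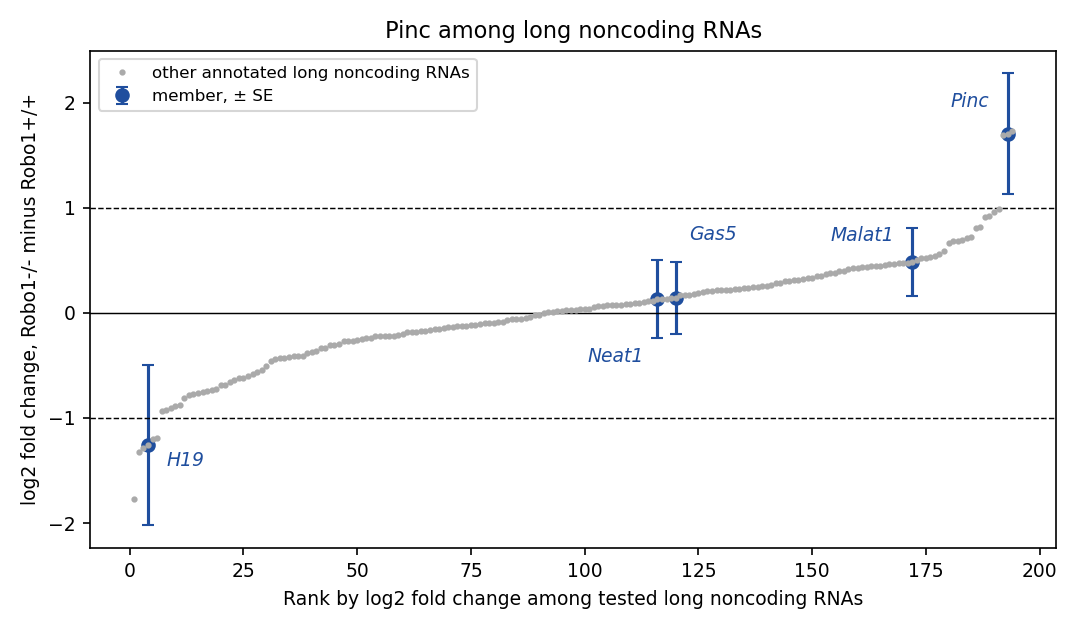
Log2 fold change (Robo1-/- minus Robo1+/+) of the 194 tested long noncoding RNAs in rank order, with the 5 tested members in blue with their SE and dashed lines at 1 and -1. Pinc (1.70) is near the top, H19 (-1.26) near the bottom, and Neat1, Gas5 and Malat1 (0.13, 0.14 and 0.48) lie within the main body.

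The plot of ranked fold changes places the members in that class, with Pinc and H19 near its ends. Of a list of other named long noncoding RNAs, 20 were found in the table and 15 tested, with 0 past both thresholds, a median log2 fold change of 0.13 (0.03 without gh18) and a range of -0.24 to 0.96. Xist, which silences an X chromosome, was the highest of them. It was at 26417, 23349 and 24032 in Robo1+/+ and at 30273, 21652 and 56222 in Robo1-/-, a log2 fold change of 0.44 ± 0.36 (SE), with gh18 far above the rest; it was 0.06 without gh18 and 0.14 after GC correction. The libraries did not record strand, so that reads of Tsix, its antisense RNA, cannot be told apart from its own.

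Compared per length, as reads per kilobase of annotated exon per 1000000 reads, Malat1 stood highest with 92.6 to 210 over the 6 libraries (mean 162 ± 45.3, SD, n = 6). Gas5 came next at 63.8 to 134 (94.7 ± 28.4), then Neat1 at 31.7 to 77.9 (56.4 ± 17), and these neighbours in the order overlapped. H19 was below them without overlap at 1.75 to 20.4 (10.2 ± 6.77), and Meg3 lowest at 0.00317 to 0.0843. The place of Neat1 depends on its form: over the 3004 bases of its short polyadenylated transcript, in place of 20771, the mean would be 390, above Malat1. Pinc could not be placed on this scale for want of annotated exons. Together the members took 0.223% to 0.336% of the reads of a library.

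**Figure D4:**
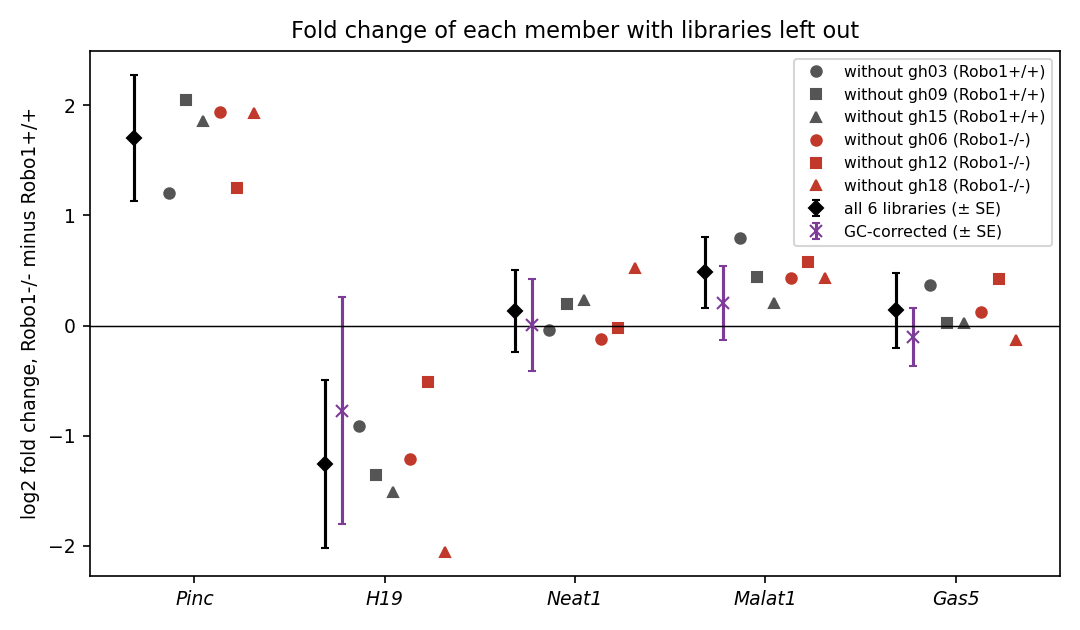
Log2 fold change (Robo1-/- minus Robo1+/+) of the 5 tested members with all libraries (black, ± SE), after GC correction (purple, ± SE; not available for Pinc) and with each library left out (grey for Robo1+/+, red for Robo1-/-). Pinc stays between 1.21 and 2.05 and H19 below 0 throughout, while Neat1 and Gas5 lie on both sides of 0.

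The plot of fold changes with libraries left out shows which libraries moved each member most. These were gh03 and gh12 for Pinc, gh12 and gh18 for H19, and gh03, gh12 and gh18 for Gas5. For Malat1 they were gh03 and gh15. Neat1 moved most without gh18 and changed sign without gh03, gh06 or gh12. The clusters around the members, 3 on either side, came to 30 distinct genes, of which 18 were tested and 0 passed both thresholds. The genes most like the remaining members over the 6 libraries were 9130017N09Rik and Cck for Neat1 (Pearson r = 0.986 for both), AB341654 and Polr2g for Malat1 (0.981 for both), and Mobkl2b and Serf1 for Gas5 (0.993 for both).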

How the data were processed

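RNA-seq (Illumina TruSeq v1, poly(A)+, a kit that does not mark strand) covered 6 libraries. Per the labels and the study's methods, the authors trimmed reads to 75 bases, removed those that Bowtie placed on mouse repeat elements, so reads from repeats within a long noncoding RNA are missing, and mapped the rest to mm9 with TopHat. They normalised the counts with DESeq by the processing notes (DESeq2 by the methods); the counting tool, its rule for reads with several matches and the versions are not given in the sources used here. The deposited values are a signal, read counts divided by 1 size factor per library. Whole reads came back for 100% of values in every library (tolerance 0.005 in units of the normalised value, growing slightly with the value). Count tests on them were alternatives.

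Genes kept by filterByExpr (edgeR 4.0.16; 13692 of 18537) were fitted with limma 3.58.1 (R 4.3.3, empirical Bayes with trend) on log2(value + 1), genotype as the factor, with Benjamini-Hochberg adjustment over all genes tested. Single values were compared by two-sided exact permutation (scipy 1.17.1). Alternatives were edgeR, DESeq2 1.42.0, TMM and upper-quartile scaling, pseudocounts 0.5 and 5, no filter, a mean of at least 10, GC correction (lowess on exon GC) and leaving out each library. Exons came from GENCODE M1 (NCBI37), matched by symbol for 89.03% of clusters; sequences from RefSeq or that genome.

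The members and gene lists were chosen with earlier results of these data known. Genes were named by these rules: the members; Robo1; list genes with an unadjusted p under 0.05, and at most 2 further genes of each list, those of highest mean; nearest clusters; the 5 genes (Pinc) or 2 genes (others) of highest Pearson r; and the top marker per list. Samples carry the labels of separate libraries, so p-values measure the spread between pools of 2 animals. Depth was 9727191 to 17433868 reads; counting error is the only error an interval on reads would cover. Results for 2 neighbouring genes are not reported here.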

Additional observations from a re-analysis of the deposited data

How the results depend on the processing

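No paired analysis was run, because the labels name no pairs of libraries and the library numbers are not shared between genotypes. Pinc kept its direction under all 14 alternatives run and lost the unadjusted call without gh03 and without gh12; leaving out each library gave 1.21 to 2.05, and its adjusted p ran from 0.555 to 0.994. H19 kept its direction under all 15, from -2.05 to -0.51 with a library left out, the former past both thresholds. Neat1 changed sign without gh03, gh06 and gh12 (range -0.12 to 0.52 with a library left out), and Gas5 after GC correction (-0.11) and without gh18 (range -0.13 to 0.42); the cause was not tested. Malat1 kept its direction (0.21 to 0.80). The 4 differences between Pinc and another member kept theirs under both pseudocounts and every library left out.

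The count of genes past both thresholds was 115, against 178 in DESeq2, 61 after GC correction and 304 without a filter, which tests more genes, and 85 to 653 with a library left out. GC correction changed the split from 40 higher and 75 lower to 36 and 25. No gene of the 7 lists passed both thresholds, against 0 to 2 with a library left out: Kcnq1ot1 without gh03 or gh12, Upf1 and E130012A19Rik without gh06, and Igf2 without gh18. The mean level per kilobase moved to 139 for Gas5 with its longest transcript and to 390 for Neat1 with its short transcript, an alternative chosen after seeing the data. Meg3, with 1 to 16 reads a library, allows no statement on a difference.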
